A study of Coturnix japonica with 16 samples.

Results

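The oxidative phosphorylation genes were read in liver RNA of 16 Japanese quail (Coturnix japonica). Members were genes whose NCBI symbol begins with NDUF, SDH, UQCR, COX or ATP5, plus CYC1, CYCS and the other protein genes of the mitochondrial genome, with a mean of at least 1 CPM (counts scaled to library size) over the birds. This rule found 80 of the 20308 genes in the table. All 80 passed the level, the lowest being NDUFA4L2 with a mean of 2.81 CPM and NDUFAF6 with 4.77 CPM, so no gene lay just outside it. The members are 13 genes of the mitochondrial genome, 55 subunit genes of the nucleus, 11 nuclear assembly factors and NDUFA4L2, a relative of the subunit gene NDUFA4.

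The solvent group held 6 birds given corn oil alone. A group of 5 birds received 0.5 mg/kg body weight of EE2 (ethinylestradiol, a synthetic estrogen) in corn oil, and another group of 5 birds received 5 mg/kg. All birds were 12 weeks old, were kept on 8 h of light and 16 h of dark, had been fasted for 16 h, and received a single dose by mouth into the crop at 4 mL/kg; RNA came from the left lobe of the liver. How long after dosing the livers were taken, whether libraries were stranded or selected for polyadenylated RNA, and the birds' sex were not given in the sources used here. Birds are called below by the replicate number of their group.

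Oxidative phosphorylation passes electrons from NADH and succinate through complexes I to IV of the inner mitochondrial membrane to oxygen, and the proton gradient this builds drives ATP synthase, complex V. Complexes I, III, IV and V are built from subunits of both genomes, whereas complex II is wholly nuclear. Liver relies on the chain for the ATP that gluconeogenesis and lipid and protein synthesis use, and estrogen sets the liver of a laying bird to make yolk precursors. The members cover complex I with 7 mitochondrial and 34 nuclear subunit genes and 8 assembly factors, and complex II with 4 subunit genes and 3 assembly factors. Complex V has 2 mitochondrial and 16 nuclear subunit genes. Complex III is covered by the mitochondrial gene CYTB alone, and complex IV by COX1, COX2, COX3, NDUFA4 and NDUFA4L2. The nuclear subunit genes of complex III, the nuclear COX genes and the cytochrome c genes were not analysed here, since no symbol of that kind was matched in the name table.

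Total counts ran from 15173021 to 46192737 per bird. Hepatocyte markers were all present, with ALB, the gene of serum albumin, between 69750 and 136800 CPM. The 10 hepatocyte markers summed to medians of 146200 CPM in solvent birds, 155900 CPM in 0.5 mg/kg birds and 149700 CPM in 5 mg/kg birds. Their ranges overlapped, and the lowest sum, 113200 CPM, was in a solvent bird numbered 1 to 3. The summed CPM of 6 muscle markers did not pass 3.79 in any bird, and MYL1 was at 0 in all 16 birds. The erythroid markers RHAG, EPB42 and SLC4A1 summed to a median of 227 CPM in solvent birds, 246 CPM in 0.5 mg/kg birds and 110 CPM in 5 mg/kg birds, with overlapping ranges. The 6 macrophage markers had a median of 324 CPM in solvent birds, where 1 bird numbered 1 to 3 reached 1021 CPM. Their median was 257 CPM in 0.5 mg/kg birds and 269 CPM in 5 mg/kg birds. The 6 endothelial markers had medians of 96.3 CPM in solvent birds, 75 CPM in 0.5 mg/kg birds and 76.0 CPM in 5 mg/kg birds, with overlapping ranges. The 2 lymphocyte markers had medians of 1.71, 1.37 and 1.52 CPM in the same order, and 1 solvent bird reached 16.2 CPM. The part of these cells in the results below was not tested. In bulk liver, fewer cells of a type and less RNA per cell cannot be told apart.

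The 13 mitochondrial genes took a large part of all liver counts, and their sum overlapped between the groups. They took between 8.91% and 14.5% of counts in solvent birds, with a median of 12.2%. They took 11.3%, 12.0%, 9.77%, 9.77% and 8.64% in 0.5 mg/kg birds 1 to 5. The 5 mg/kg birds 1 to 5 had 9.21%, 10.3%, 13.7%, 13.7% and 7.03%. The 5 mg/kg group held the lowest value of all birds as well as values near the top. The means were 12.0 ± 2.0% in solvent birds, 10.3 ± 1.33% in 0.5 mg/kg birds and 10.8 ± 2.91% in 5 mg/kg birds (SD, n = 6, 5 and 5).

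**Figure D1:**
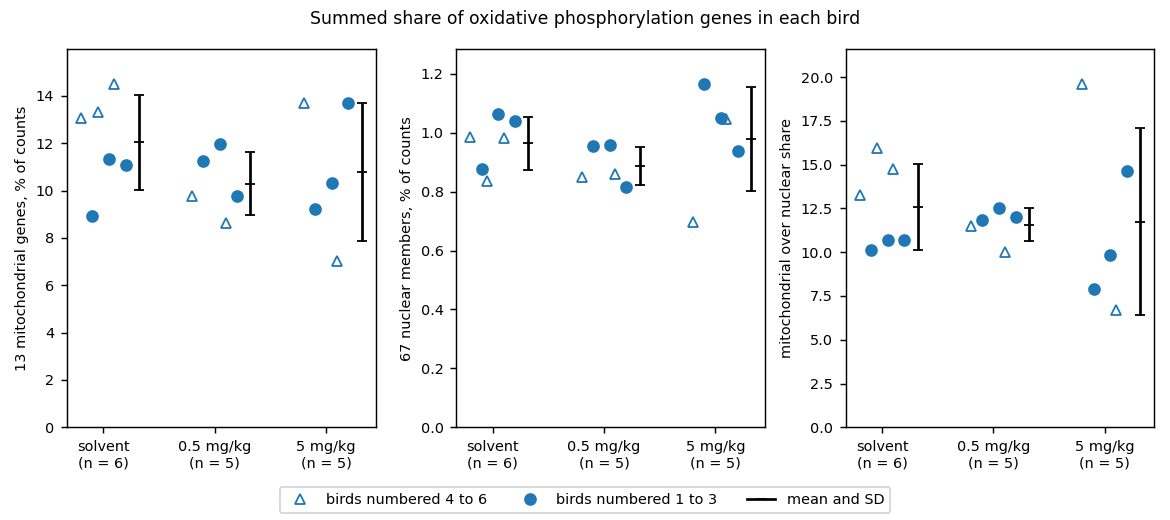
Share of all counts taken by the 13 mitochondrial genes, share taken by the 67 nuclear members, and the ratio of the shares, for each bird (points) with the group mean and SD (bars). The groups overlap in each panel, and the 5 mg/kg birds are the most spread in the ratio.

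The share of the 67 nuclear members together averaged 0.964 ± 0.0895% in solvent birds, 0.887 ± 0.0648% in 0.5 mg/kg birds and 0.979 ± 0.176% in 5 mg/kg birds. The ratio of the mitochondrial to the nuclear share was 12.6 ± 2.44 in solvent birds, 11.6 ± 0.935 in 0.5 mg/kg birds and 11.7 ± 5.34 in 5 mg/kg birds. The 5 mg/kg birds covered the widest range, from 6.72 in bird 5 to 19.6 in bird 4. Bird 4 had a mitochondrial share of 13.7% and the lowest nuclear share of all birds, 0.698%. The plot of summed shares shows these birds at the ends of the 5 mg/kg group.

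No member gene passed an adjusted p of 0.05 at 5 mg/kg against solvent, and most fitted changes were small. The test was edgeR's quasi-likelihood test over all 13748 genes that passed a filter on low counts, with Benjamini-Hochberg adjustment; it called 6 of them, or 0.0436%. None of the 80 members had an unadjusted p under 0.05, against 9.76% of all genes tested. The nuclear subunit genes varied together from bird to bird, and so did the mitochondrial genes. Counts of members, here and below, are therefore not counts of separate results. DESeq2 and limma-voom also called 0 members. The median log2 fold change of the members was 0.01 and that of all genes was -0.00. Of the 80 members, 43 lay above 0, a share close to the 49.8% of all genes tested that did. For 63 of the 80 members the 95% interval of the fold change lay wholly within 1.5-fold of no change, against 39.5% of all genes tested. Such shares, here and below, are not matched for level. Of the 13748 genes tested, 4568 had a mean of at least 20 CPM, as did all 55 nuclear subunit genes. No member separated the 5 mg/kg birds from the solvent birds without overlap, which 0.967% of all genes did.

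At 0.5 mg/kg against solvent, too, no member passed an adjusted p of 0.05. edgeR called 0 members and 0% of all genes, and DESeq2 and limma-voom called 0 members. An unadjusted p under 0.05 was reached by 2 members, NDUFAF5 and NDUFV3, against 8.25% of all genes tested in either direction. Both were lower in 0.5 mg/kg birds, and 4.42% of all genes tested reached that p on the lower side. The members' median log2 fold change was -0.02, the same as that of all genes, and 36 of 80 lay above 0, against 46.9% of all genes tested. The interval lay within 1.5-fold for 64 of 80 members, against 40.3% of all genes tested. No member separated the 0.5 mg/kg birds from the solvent birds without overlap, which 1.52% of all genes did. Both doses are set against the same 6 solvent birds, so the comparisons are not independent of each other.

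Between the doses, 5 mg/kg against 0.5 mg/kg, edgeR, DESeq2 and limma-voom called 0 members, and edgeR called 0% of all genes. The single member with an unadjusted p under 0.05 was again NDUFAF5, against 7.25% of all genes tested. The median member had a log2 fold change of 0.00, and 40 of 80 lay above 0, against 53% of all genes tested.

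**Figure D2:**
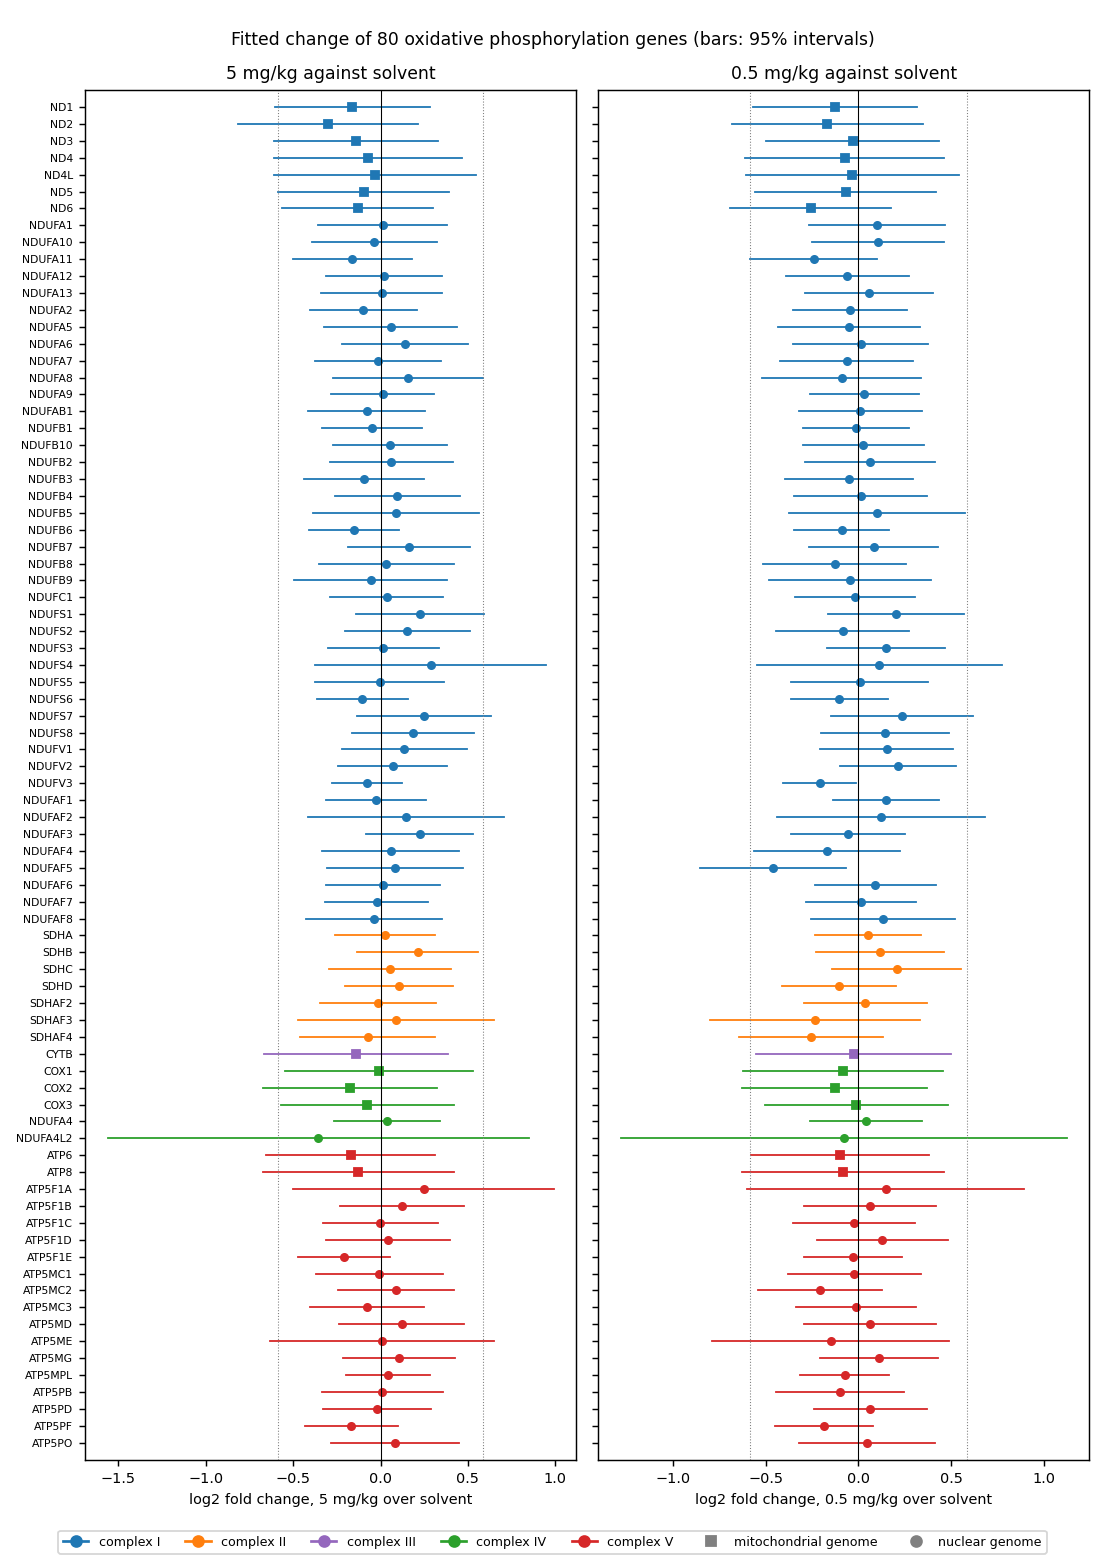
Fitted log2 fold change of each member (points; squares mark mitochondrial genes) with its 95% interval, for 5 mg/kg over solvent on the left and 0.5 mg/kg over solvent on the right; dotted lines mark 1.5-fold. The intervals cross 0 for all members on the left and for all but NDUFAF5 and NDUFV3 on the right, and the 13 mitochondrial genes lie below 0 in both.

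The mitochondrial genes are copied from both strands as long precursors that are cut into single messages. Their fitted changes lay below 0 at both doses, and none passed the test. All 13 fitted log2 fold changes were below 0 at 5 mg/kg, between -0.30 for ND2 and -0.01 for COX1, with a median of -0.13. At 0.5 mg/kg all 13 were also below 0, between -0.26 for ND6 and -0.01 for COX3, with a median of -0.08. The 13 genes moved with each other from bird to bird, and the dosed groups share their solvent birds, so this count is not 13 separate results. Single birds weighed on these medians: the median was 0.01 at 5 mg/kg without 5 mg/kg bird 5, and 0.00 at 0.5 mg/kg without solvent bird 4. These were the highest medians with 1 bird left out, and the lowest were -0.23 and -0.20 at 5 and 0.5 mg/kg. The lowest unadjusted p among them by edgeR was 0.238 at 5 mg/kg and 0.226 at 0.5 mg/kg. The 95% interval lay within 1.5-fold for 4 and 6 of the 13 at 5 and 0.5 mg/kg. Of all genes tested, 39.5% and 40.3% had such intervals, so these counts are near the shares of all genes.

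COX1, the catalytic core of cytochrome c oxidase, ran from 22626 to 37659 CPM in solvent birds with a median of 32022 CPM. The 0.5 mg/kg birds 1 to 5 had 32384, 30811, 27911, 27685 and 28344 CPM. The 5 mg/kg birds 1 to 5 had 24632, 29465, 42436, 43236 and 15211 CPM. The 5 mg/kg birds thus spanned more than the whole solvent range, and the 0.5 mg/kg birds lay within it. The log2 fold change was -0.01 (SE 0.25, edgeR adjusted p = 0.994) at 5 mg/kg and -0.08 (SE 0.25, edgeR adjusted p = 0.954) at 0.5 mg/kg.

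ND2, a proton-pumping subunit in the membrane arm of complex I, ran from 3736 to 7144 CPM in solvent birds, with a median of 6473 CPM. The 0.5 mg/kg birds had 6291, 7171, 4735, 4647 and 4377 CPM, and the 5 mg/kg birds had 3716, 5157, 6195, 6997 and 2802 CPM. Birds 1 and 5 of the 5 mg/kg group were lower than every solvent bird, and the groups overlapped. The log2 fold change was -0.30 (SE 0.24, edgeR adjusted p = 0.718) at 5 mg/kg and -0.17 (SE 0.24) at 0.5 mg/kg. As a part of the sum of the 13 genes, ND2 held 5.30 ± 0.331% in solvent birds, 4.91 ± 0.547% in 0.5 mg/kg birds and 4.55 ± 0.338% in 5 mg/kg birds; this difference in share was picked after its values were seen and was given no test.

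CYTB, the mitochondrial subunit of complex III, had log2 fold changes of -0.14 (SE 0.25) at 5 mg/kg and -0.03 (SE 0.25) at 0.5 mg/kg. ATP6, the proton channel subunit of ATP synthase, had -0.17 (SE 0.23) and -0.10 (SE 0.23) at 5 and 0.5 mg/kg. Its level ran from 5705 to 13325 CPM in solvent birds, with a median of 11303 CPM. It was 11762, 11384, 9574, 8818 and 8064 CPM in 0.5 mg/kg birds and 7714, 9371, 11823, 11888 and 6386 CPM in 5 mg/kg birds. These groups overlapped as well, with 0.5 mg/kg and 5 mg/kg birds inside the solvent range. COX1 gave 27.3% of the summed mitochondrial counts on average over the 16 birds, COX3 12.2%, CYTB 10.8%, ND4 10.7%, COX2 9.24% and ATP6 8.99%; ATP8, ND6, ND4L and ND3 gave under 1% each. In vertebrates ATP8 overlaps ATP6, ND4L overlaps ND4, and ND6 lies on the opposite strand from the others, so the counts of ATP8, ND4L and ND6 are uncertain.

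In complex I, the 7 nuclear core subunits, which carry the flavin and iron-sulfur clusters that lead electrons to ubiquinone, had fitted changes mostly above 0 at both doses, and none passed the test. All 7 lay above 0 at 5 mg/kg, with a median log2 fold change of 0.15, and 6 of 7 lay above 0 at 0.5 mg/kg, also with a median of 0.15. Of all genes tested, 49.8% and 46.9% lay above 0 at 5 and 0.5 mg/kg. The nuclear subunit genes varied together and both doses share the solvent birds, so these counts are not separate results. NDUFS7 carries the cluster nearest to ubiquinone. It ran from 55.5 to 111 CPM in solvent birds, with a median of 89.2 CPM. It stood at 115, 93.9, 91.5, 108 and 96.1 CPM in 0.5 mg/kg birds and at 135, 123, 94.2, 69.5 and 88.7 CPM in 5 mg/kg birds. Birds 1 and 2 of the 5 mg/kg group were above every solvent bird, bird 4 was below all but 1 of them, and the log2 fold change was 0.25 (SE 0.18, edgeR adjusted p = 0.672).

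NDUFS1, the largest iron-sulfur subunit of complex I, ran from 157 to 273 CPM in solvent birds with a median of 226 CPM. The 0.5 mg/kg birds had 278, 272, 228, 251 and 251 CPM, and the 5 mg/kg birds had 346, 325, 211, 215 and 204 CPM. Again birds 1 and 2 of the 5 mg/kg group were the highest of all 16 birds. The log2 fold change was 0.23 (SE 0.17, edgeR adjusted p = 0.693) at 5 mg/kg and 0.20 (SE 0.17) at 0.5 mg/kg. NDUFS8, which binds another pair of clusters, had 0.19 (SE 0.16) at 5 mg/kg, and NDUFV1, the NADH-binding subunit, had 0.14 (SE 0.17). NDUFV2, its partner in the NADH module, had 0.21 (SE 0.15) at 0.5 mg/kg and 0.07 (SE 0.15) at 5 mg/kg.

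The solvent bird numbered 1 lay low for these genes, at 55.5 CPM for NDUFS7, 157 CPM for NDUFS1 and 168 CPM for NDUFV1, the lowest of the group each time. Without that bird the median log2 fold change of the 55 nuclear subunit genes was -0.05 at 5 mg/kg, against 0.03 with it, and -0.09 at 0.5 mg/kg, against 0.01 with it. For the 13 mitochondrial genes the median without that bird was -0.23 at 5 mg/kg and -0.20 at 0.5 mg/kg.

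The 27 supernumerary subunits of complex I, which surround the core and are needed for its assembly and stability, lay on both sides of 0. At 5 mg/kg 15 of 27 were above 0, with a median of 0.01. For 26 of 27 the 95% interval stayed within 1.5-fold, against 39.5% of all genes tested. At 0.5 mg/kg 13 of 27 were above 0, with a median of -0.01. NDUFV3, a small subunit of the NADH module, had the lowest p of the subunits at 0.5 mg/kg. Its level ran from 35.7 to 46.1 CPM in solvent birds, with a median of 38.9 CPM. It was 36.4, 34.5, 32.6, 33.6 and 32.6 CPM in 0.5 mg/kg birds and 42.7, 38.8, 35.4, 32.8 and 36.3 CPM in 5 mg/kg birds. All but 1 of the 0.5 mg/kg birds lay below every solvent bird, and the log2 fold change was -0.21 (SE 0.09, unadjusted p = 0.0398, edgeR adjusted p = 0.598). NDUFA11, which joins the membrane arm's parts, had -0.24 (SE 0.16) at 0.5 mg/kg and -0.16 (SE 0.16) at 5 mg/kg. NDUFB6, a subunit of the membrane arm, had -0.15 (SE 0.12) at 5 mg/kg, and NDUFA10, one of the most abundant supernumerary transcripts by CPM, had -0.04 (SE 0.17).

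Complex II, succinate dehydrogenase, also serves the tricarboxylic acid cycle. Its 4 subunits lay above 0 at 5 mg/kg, with a median log2 fold change of 0.08, and 3 of 4 did at 0.5 mg/kg, also with a median of 0.08. Of all genes tested, 49.8% and 46.9% did at 5 and 0.5 mg/kg. None of the 4 passed the test, and all 4 intervals stayed within 1.5-fold at both doses. Of all genes tested, 39.5% and 40.3% had such intervals at 5 and 0.5 mg/kg. SDHB, the iron-sulfur subunit, ran from 75.4 to 139 CPM in solvent birds, with a median of 114 CPM. It was 126, 118, 104, 126 and 141 CPM in 0.5 mg/kg birds and 142, 168, 128, 91.8 and 127 CPM in 5 mg/kg birds. The groups overlapped, and the log2 fold change of SDHB was 0.21 (SE 0.16, edgeR adjusted p = 0.694) at 5 mg/kg. SDHA, the flavin subunit that oxidises succinate, had 0.03 (SE 0.13), and SDHC, a membrane anchor, had 0.05 (SE 0.17) at 5 mg/kg and 0.21 (SE 0.17) at 0.5 mg/kg.

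NDUFA4, once counted to complex I and now known as a subunit of cytochrome c oxidase, averaged 231 ± 42.3 CPM in solvent birds, 237 ± 30.6 CPM in 0.5 mg/kg birds and 236 ± 25.3 CPM in 5 mg/kg birds. Its log2 fold change was 0.04 (SE 0.14) at both doses, with intervals inside 1.5-fold. Its relative NDUFA4L2, which hypoxia induces in mammals, had the lowest level of the members, from 1.29 to 4.84 CPM with a median of 2.88 CPM in solvent birds. It was 7.79, 1.49, 0.869, 3.11 and 1.40 CPM in 0.5 mg/kg birds and 1.18, 1.90, 1.05, 1.87 and 6.03 CPM in 5 mg/kg birds. In each dose group 1 bird stood above all solvent birds, and the 95% interval of the log2 fold change at 5 mg/kg, from -1.56 to 0.85, was the widest of all members.

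The 16 nuclear genes of ATP synthase were spread around 0. At 5 mg/kg 10 of 16 lay above 0, with a median log2 fold change of 0.03, and at 0.5 mg/kg 7 of 16 did, with a median of -0.02. ATP5F1E, the epsilon subunit of the rotor stalk, had the lowest p of all members at 5 mg/kg. It ran from 85.6 to 138 CPM in solvent birds, with a median of 103 CPM. It stood at 109, 108, 94.0, 103 and 122 CPM in 0.5 mg/kg birds and at 90.0, 93.7, 106, 88.5 and 94.7 CPM in 5 mg/kg birds. The 5 mg/kg birds lay within the lower part of the solvent range. The log2 fold change was -0.21 (SE 0.12, unadjusted p = 0.113, edgeR adjusted p = 0.599).

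ATP5PF, part of the peripheral stalk that holds the enzyme's head still, had -0.17 (SE 0.13) at 5 mg/kg and -0.19 (SE 0.13) at 0.5 mg/kg. ATP5F1B, the catalytic beta subunit, ran from 942 to 1542 CPM in solvent birds, with a median of 1364 CPM. It was 1508, 1472, 1153, 1225 and 1322 CPM in 0.5 mg/kg birds and 1671, 1672, 1340, 994 and 1293 CPM in 5 mg/kg birds. Its log2 fold changes were 0.12 (SE 0.17) at 5 mg/kg and 0.06 (SE 0.17) at 0.5 mg/kg. Birds 1 and 2 of the 5 mg/kg group were again above every solvent bird. The c ring of the proton-driven rotor is encoded by ATP5MC1, ATP5MC2 and ATP5MC3, whose mature proteins are the same in mammals. Their log2 fold changes at 5 mg/kg were -0.01 (SE 0.17) for ATP5MC1, 0.09 (SE 0.16) for ATP5MC2 and -0.08 (SE 0.15) for ATP5MC3. At 0.5 mg/kg they were -0.02 for ATP5MC1, -0.21 for ATP5MC2 and -0.01 for ATP5MC3, with standard errors of 0.17, 0.16 and 0.15. As near copies of each other these genes can share reads, so their split is uncertain.

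Among the 11 assembly factors, 6 lay above 0 at each dose, with a median of 0.01 at both. NDUFAF5, which in mammals hydroxylates NDUFS7 early in complex I assembly, was the member with the lowest p at 0.5 mg/kg and between the doses. It ran from 3.64 to 6.29 CPM in solvent birds, with a median of 5.38 CPM. It stood at 3.22, 3.60, 3.87, 4.71 and 3.60 CPM in 0.5 mg/kg birds and at 4.92, 4.92, 4.75, 4.91 and 8.26 CPM in 5 mg/kg birds. All 5 mg/kg birds lay above all 0.5 mg/kg birds, the only member with no overlap in that comparison, against 1.19% of all genes; the nearest values were 4.75 and 4.71 CPM. The log2 fold change was -0.46 (SE 0.19, unadjusted p = 0.0248, edgeR adjusted p = 0.556) at 0.5 mg/kg against solvent. It was 0.54 (SE 0.19, unadjusted p = 0.0127, edgeR adjusted p = 0.582) at 5 mg/kg against 0.5 mg/kg. NDUFAF3, a partner of NDUFAF4 in building the part of complex I that binds ubiquinone, had 0.22 (SE 0.14, edgeR adjusted p = 0.631) at 5 mg/kg. SDHAF4, which helps to join SDHA to SDHB, had -0.26 (SE 0.18) at 0.5 mg/kg.

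Levels of the nuclear subunit genes varied together from bird to bird, and so did those of the mitochondrial genes. The 13 mitochondrial genes had a median SD of 0.38 in log2 CPM over the 16 birds, which became 0.11 once each bird's mean over the 13 genes was subtracted. For the 52 nuclear subunit genes off the Z chromosome the SD of 0.26 became 0.14 in the same way. A list of 23 genes of the TCA cycle and enzymes beside it kept most of theirs, 0.32 after subtraction against 0.39 before. The 73 mitochondrial ribosome genes kept 0.19 of 0.24. For the 75 cytosolic ribosome genes the SD of 0.20 became 0.12, so varying together was not particular to the members. The 13 and the 52 did not always move the same way. In 5 mg/kg bird 4 the mean log2 deviation was 0.33 over the 13 and -0.33 over the 52. In 5 mg/kg bird 5 it was -0.76 and 0.09, while solvent bird 1 was low in both. The genes of the 52 and of the 13 share libraries and scaling, so this is a description of these birds. The residual variation between birds within groups, as edgeR's biological coefficient of variation, had a median of 21.4% for nuclear subunit genes and 27.7% for mitochondrial genes, against 21.2% for all genes with a mean of at least 20 CPM.

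**Figure D3:**
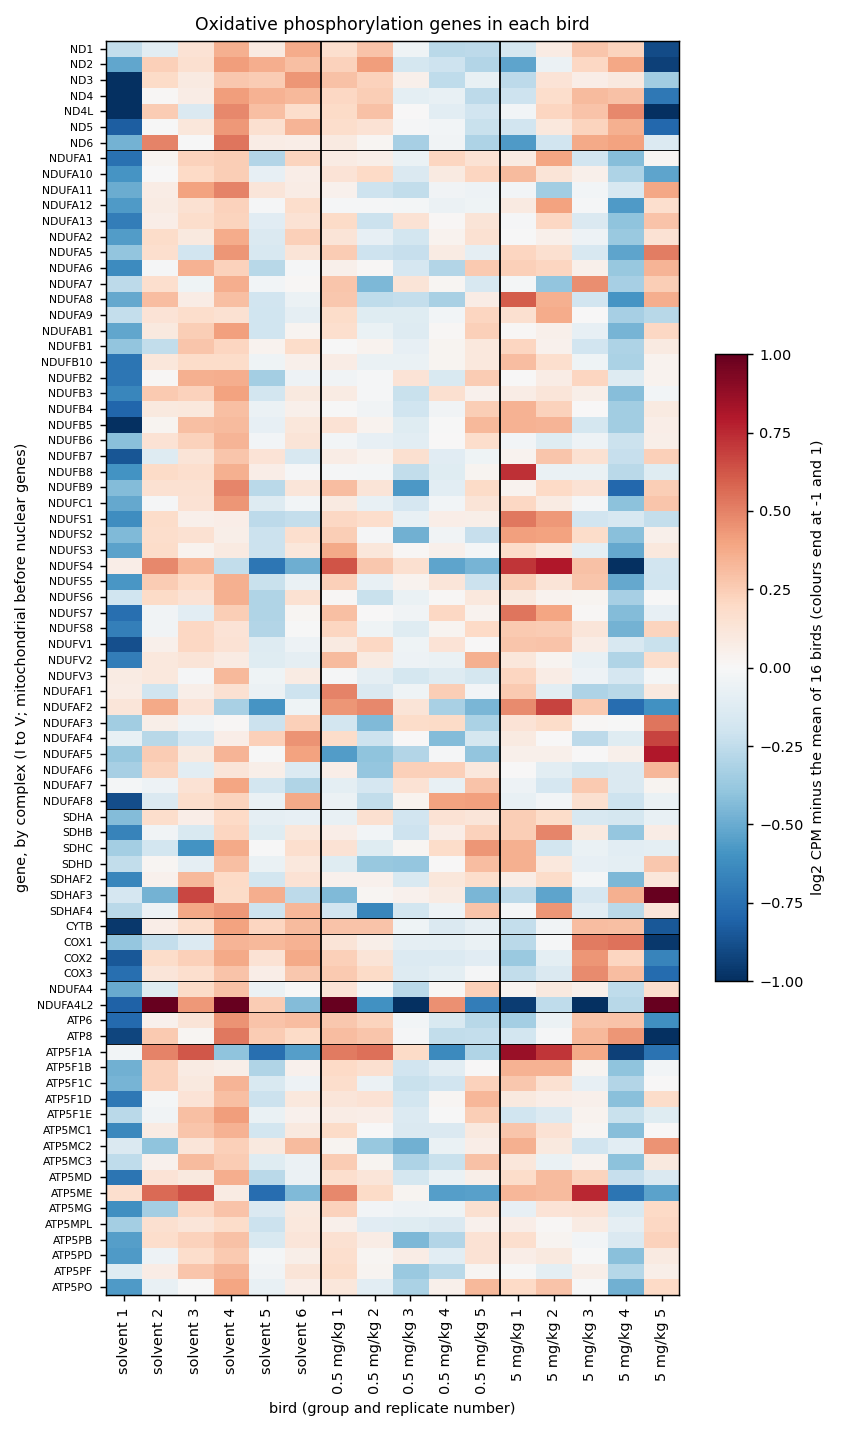
Log2 CPM of each member (rows) in each bird (columns), minus the gene's mean over the 16 birds; black lines divide the dose groups and the complexes. Columns tend to share a colour within the mitochondrial rows and within the nuclear rows, and in solvent bird 1 over both. In 5 mg/kg birds 4 and 5 the mitochondrial rows mostly differ from the nuclear rows. The Z-linked rows ATP5F1A, ATP5ME, NDUFS4 and NDUFAF2 break from their neighbours.

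Of the single birds, solvent bird 1 stood lowest. Its mean log2 deviation was -0.53 over the 52 nuclear genes and -0.77 over the 13 mitochondrial genes, and 39 of the 52 had their lowest value there, against 12.6% of all genes tested. This count moved with the scaling: TMM, the scaling used, gave that library the largest factor of all, 1.30, and in unscaled CPM 6 of the 52 were lowest in solvent bird 1, against 3.32% of all genes tested. On both scales the members lay below the other genes of that bird. Unscaled, the mean deviation there was -0.15 over the 52 genes and -0.38 over the 13, against 0.47 over all genes tested; after TMM the mean over all genes was 0.09. Unscaled CPM placed 30 of the 52 lowest in 5 mg/kg bird 4, against 6.72% of all genes tested. It placed 24 of the 52 highest in 5 mg/kg bird 5, against 2126 of all 13748 genes, whose mean deviation in that bird was 0.20. The mitochondrial genes were low in 5 mg/kg bird 5 under both scales, with a mean deviation of -0.76 after TMM and 9 of 13 lowest there in unscaled CPM.

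The replicate numbers in the labels separate the birds in a way that the dose does not. In each group, birds numbered 4 to 6 (7 birds) differed from birds numbered 1 to 3 (9 birds) in Z-linked genes, a split known from earlier results of these data. In birds the male carries a pair of Z chromosomes and the female a Z and a W, and many Z-linked genes are only partly compensated for dose; the sex of these birds was not stated in those sources, and no other feature that goes with the numbers can be told apart from it. The 613 Z-linked genes tested had a median log2 fold change of -0.46 in birds numbered 4 to 6 against 1 to 3, and 85.3% lay below 0. The classes of number did not overlap in CPM for 14.5% of these 613 genes, and for 3 of the 4 Z-linked members. The 4 Z-linked members belong to this split, so their values are given as a description with no test.

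ATP5F1A, the alpha subunit of the ATP synthase head, stood at 583, 459 and 526 CPM in solvent birds 4 to 6, at 497 and 626 CPM in 0.5 mg/kg birds 4 and 5, and at 404 and 464 CPM in 5 mg/kg birds 4 and 5. Birds 1 to 3 had 755, 1091 and 1186 CPM in solvent, 1109, 1133 and 882 CPM at 0.5 mg/kg, and 1407, 1267 and 1004 CPM at 5 mg/kg. No bird numbered 4 to 6 reached the lowest of the birds numbered 1 to 3. The log2 fold change between the classes of number was -1.10 (SE 0.15), with the dose groups as terms in the fit. The alpha and beta subunits alternate in equal number in the head, and the gene of the beta subunit, ATP5F1B, does not lie on the Z chromosome in the name table. The ratio of ATP5F1A to ATP5F1B was 0.412 ± 0.0360 in the 7 birds numbered 4 to 6, between 0.359 and 0.474. In the 9 birds numbered 1 to 3 it was 0.775 ± 0.0477, between 0.708 and 0.850. These are ratios of RNA counts with no correction for transcript length, so they do not give the ratio of the proteins.

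NDUFS4, a supernumerary complex I subunit next to the NADH module, whose loss causes Leigh syndrome in humans, had a log2 fold change of -0.93 (SE 0.15) in birds numbered 4 to 6 against 1 to 3. Its ratio to NDUFS1 was 0.131 ± 0.0281 in birds numbered 4 to 6 and 0.221 ± 0.0279 in birds numbered 1 to 3, with ranges of 0.0898 to 0.180 and 0.185 to 0.279 that did not overlap. ATP5ME, the e subunit of the membrane part, had -0.89 (SE 0.14), and its ratio to ATP5MG, the neighbouring g subunit, was 0.744 ± 0.0972 in birds numbered 4 to 6 and 1.49 ± 0.308 in birds numbered 1 to 3. The CPM of ATP5ME overlapped at 1 point, since solvent bird 4 with 183 CPM lay above 0.5 mg/kg bird 3 with 175 CPM. NDUFAF2, a late assembly factor of complex I, had -0.78 (SE 0.13). Its ratio to NDUFAF1 was 0.287 ± 0.0638 in birds numbered 4 to 6 and 0.489 ± 0.104 in birds numbered 1 to 3, and these ranges did overlap. The partner genes were chosen with earlier results known. Such ratios were not formed for other Z-linked genes, so no share of all Z-linked genes stands beside the ranges of these ratios.

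**Figure D4:**
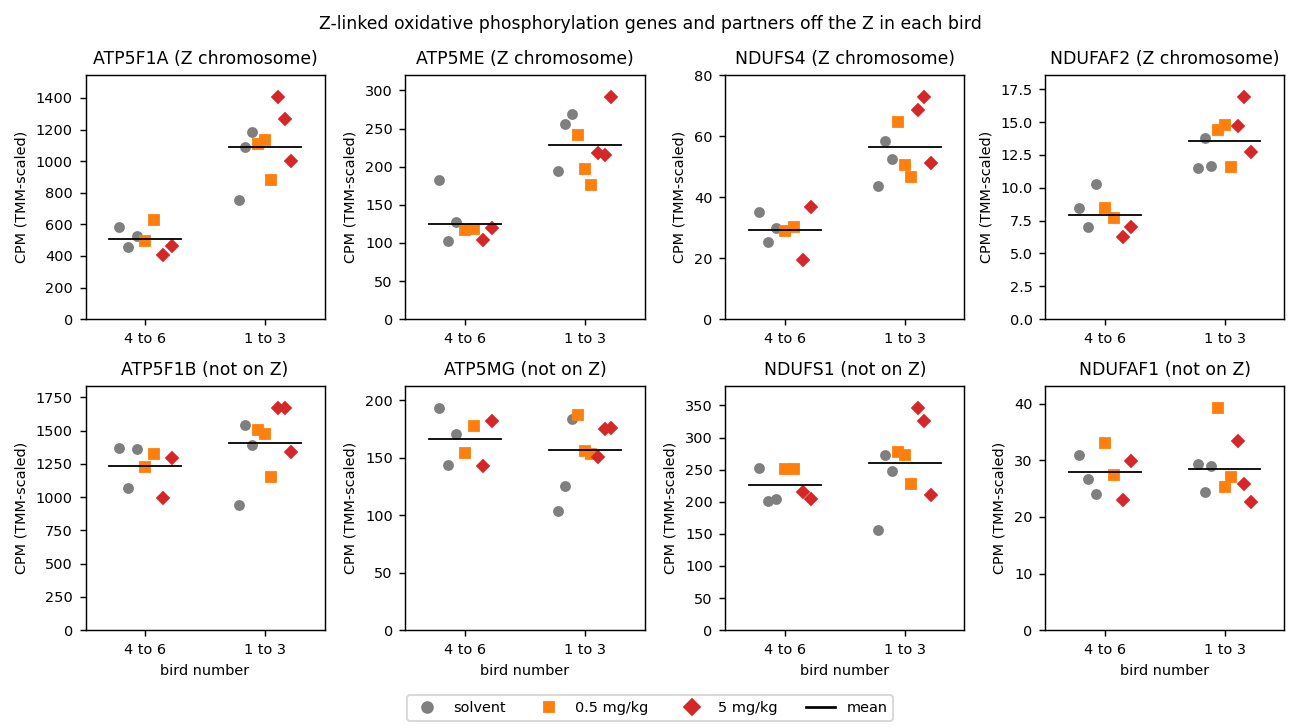
CPM of the 4 Z-linked members (top) and of a partner gene off the Z chromosome (bottom) in each bird, with birds numbered 4 to 6 on the left and 1 to 3 on the right of each panel; bars are class means and colours are doses. Birds numbered 4 to 6 lie below birds numbered 1 to 3 for ATP5F1A, NDUFS4 and NDUFAF2, while the partner genes overlap. Of all Z-linked genes tested, 14.5% separated the classes without overlap.

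No such split was called among the 76 members off the Z chromosome. edgeR, with the dose groups as terms, called none of them between the classes of number, and called 0.137% of all genes off the Z chromosome. An unadjusted p under 0.05 was reached by 1 of the 76, against 7.44% of those genes. That gene was NDUFAF5, with a log2 fold change of 0.30 (SE 0.14, unadjusted p = 0.0464, edgeR adjusted p = 0.511). The median of the 76 was 0.02, and for 72 of 76 the 95% interval lay within 1.5-fold, against 7003 of the 13135 genes tested off the Z chromosome. None of the 76 separated the classes without overlap, which 0.0685% of all genes off the Z chromosome did. All 14 nuclear ATP synthase genes off the Z chromosome and all 33 such complex I subunit genes had intervals within 1.5-fold, with medians of 0.01 and -0.00. The erythroid markers summed to between 153.8 and 376.8 CPM in birds numbered 4 to 6, with a median of 274 CPM. In birds numbered 1 to 3 they summed to between 37.5 and 349.8 CPM, with a median of 112 CPM. The median log2 fold change of the 3 markers was 0.82 (lowest unadjusted p = 0.0188, lowest adjusted p = 0.374, edgeR). Their part in this comparison was not tested.

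Within the classes of number, the median dose contrasts of the mitochondrial genes differed in sign between the classes. In some of these contrasts 1 bird stood apart, but not at 0.5 mg/kg in birds numbered 4 to 6. In birds numbered 4 to 6 all 13 lay below 0 at both doses, with median log2 fold changes of -0.46 at 5 mg/kg and -0.48 at 0.5 mg/kg. In birds numbered 1 to 3, 11 of 13 lay above 0 at 5 mg/kg, with a median of 0.17, and 12 of 13 did at 0.5 mg/kg, with a median of 0.29. By the mean log2 deviation over the 13 genes, 5 mg/kg birds 4 and 5 stood at 0.33 and -0.76, against 0.41, 0.22 and 0.30 in solvent birds 4 to 6, so only bird 5 lay below them. The 0.5 mg/kg birds 4 and 5, at -0.14 and -0.18, both lay below those solvent birds. In birds 1 to 3 the mean deviations were -0.77, 0.12 and 0.08 in solvent, 0.22, 0.22 and -0.08 at 0.5 mg/kg, and -0.28, 0.01 and 0.32 at 5 mg/kg. Apart from solvent bird 1, the dosed birds of that class lay on both sides of the solvent birds. Solvent birds 4 to 6 had mitochondrial shares of 13.1% to 14.5% and solvent birds 1 to 3 had 8.91% to 11.3%, without overlap. The dosed groups did not show this order. At 0.5 mg/kg birds 4 and 5 had 8.64% to 9.77% and birds 1 to 3 had 9.77% to 12.0%. At 5 mg/kg these shares were 7.03% to 13.7% and 9.21% to 13.7%. Over all groups, the lowest unadjusted p of the 13 genes between the classes was 0.509 (edgeR). A test of the difference itself, an interaction of dose and class of number in the edgeR fit, called no mitochondrial gene; none of the 13 had an unadjusted p under 0.05, against 4.15% of all genes tested at 5 mg/kg and 3.02% at 0.5 mg/kg. The lowest unadjusted p among the 13 was 0.113 at 5 mg/kg and 0.0671 at 0.5 mg/kg, and the lowest edgeR adjusted p over the members was 0.990 at 5 mg/kg and 0.9999 at 0.5 mg/kg.

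For the nuclear subunit genes the median log2 fold change at 5 mg/kg was -0.21 in birds numbered 4 to 6 and 0.20 in birds numbered 1 to 3. The interaction had an unadjusted p under 0.05 for 4 of the 55 at 5 mg/kg, against 4.15% of all genes tested, and edgeR called none after adjustment. These 4 were SDHC, SDHB, NDUFS7 and NDUFA10. At 0.5 mg/kg 0 of the 55 reached that level, against 3.02% of all genes tested. Here too 1 bird stood low in each class at 5 mg/kg against solvent. By the mean log2 deviation over the 55 genes, 5 mg/kg birds 4 and 5 stood at -0.36 and 0.05, against 0.26, -0.16 and 0.02 in solvent birds 4 to 6, so only bird 4 lay below them. Birds 1 to 3 of the 5 mg/kg group stood at 0.21, 0.16 and 0.03, against -0.50, 0.09 and 0.16 in solvent birds 1 to 3, where solvent bird 1 was the low one.

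Genes that serve the chain without belonging to it were read from lists that fit liver mitochondria, and no gene of these lists was called by edgeR in a comparison of the doses. The regulators of mitochondrial biogenesis, 14 tested, had 1 gene at an unadjusted p under 0.05 at 5 mg/kg, the transcription factor YY1 with a log2 fold change of -0.33 (SE 0.14). At 0.5 mg/kg they had 2: PPARA, the nuclear receptor of fatty acid oxidation, with 0.50 (SE 0.17, edgeR adjusted p = 0.492), and PPARGC1A, the coactivator PGC-1alpha, with 1.53 (SE 0.66, edgeR adjusted p = 0.587). PPARGC1A had 1.30 (SE 0.66, edgeR adjusted p = 0.528) at 5 mg/kg. These shares, 1 of 14 and 2 of 14, stand beside 9.76% and 8.25% of all genes tested at 5 and 0.5 mg/kg.

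Of 14 genes that copy and transcribe mitochondrial DNA, none reached an unadjusted p under 0.05 at 5 mg/kg and 2 did at 0.5 mg/kg, where 8.25% of all genes tested did. POLRMT, the mitochondrial RNA polymerase, had log2 fold changes of -0.15 (SE 0.10) at 5 mg/kg and 0.25 (SE 0.10, edgeR adjusted p = 0.550) at 0.5 mg/kg. RNASEH1, which removes RNA primers, had 0.26 (SE 0.12) at 0.5 mg/kg. Of 17 genes of mitochondrial RNA processing, 2 reached that level at 5 mg/kg, a share near the 9.76% of all genes tested: FASTKD1 with 0.56 (SE 0.19) and FASTKD3 with 0.39 (SE 0.12, edgeR adjusted p = 0.285). Of 21 further assembly factors, OXA1L, the insertase of the inner membrane, was the one at 5 mg/kg, with 0.32 (SE 0.15).

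The tricarboxylic acid cycle supplies the chain with NADH and succinate. The list of 23 genes read for it also holds genes beside the cycle, such as those of pyruvate dehydrogenase and cytosolic enzymes. Of these 23 genes, 5 had an unadjusted p under 0.05 at 5 mg/kg, 4 higher and 1 lower, beside 9.76% of all genes tested. None did at 0.5 mg/kg, beside 8.25% of all genes. IDH3A, a subunit of the NAD-dependent isocitrate dehydrogenase, had a log2 fold change of 0.96 (SE 0.21, edgeR adjusted p = 0.102). PDHA1 and PDHB, subunits of pyruvate dehydrogenase, had 1.0 (SE 0.39) and 0.58 (SE 0.22), and IDH1, the cytosolic NADP-dependent enzyme, had -0.66 (SE 0.26). Of these named genes, only IDH3A belongs to the cycle itself. The list's median was 0.04. Of 20 carriers and shuttles, 2 were at that level at 5 mg/kg, again a share near the 9.76% of all genes: SLC25A20, the carnitine carrier, with 0.47 (SE 0.20), and DHODH, which passes electrons from pyrimidine synthesis to ubiquinone, with 0.61 (SE 0.27). The 73 mitochondrial ribosome genes had medians of 0.02 and 0.01 at 5 and 0.5 mg/kg, and the 75 cytosolic ribosome genes had 0.03 and 0.04. None of these ribosomal genes reached an unadjusted p under 0.05 at 5 mg/kg, and 1 in each list did at 0.5 mg/kg, MRPL33 and RPLP1. The 21 chaperone and import genes had none at either dose.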

How the data were processed

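Liver RNA-seq values came from 1 table for 16 birds. The authors deposited estimated counts per transcript, for which the submitters' processing notes name kallisto; no version, transcriptome or genome build was given in the sources used here. The 47418 rows were summed to 20308 genes by NCBI gene number and rounded to whole numbers, which moved a count by at most 0.5. Names and chromosomes came from the gene table of Coturnix japonica 2.1 (18900 genes matched); coordinates were not used. Of the 80 members, 60 had 1 row and 20 had 2 or more. Reads matching more than one transcript are divided by kallisto, so genes with near copies are uncertain.

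Genes were filtered by filterByExpr (minimum count 10, minimum total 15), scaled by TMM and tested with edgeR 4.0.16 (R 4.3.3, limma 3.58.1), with 3 groups, 16 birds, 13 residual degrees of freedom and adjustment over 13748 genes. DESeq2 1.42.0 was an alternative. The fits were tested on simulated data in which genes varied independently and the changes were larger than 1.5-fold. Smaller changes and genes that vary together were not covered by that run. Levels of the members are TMM-scaled CPM unless called unscaled. The cell type marker values, and the means used to pick the members, are CPM without TMM scaling. A fit with dose groups compared birds numbered 4 to 6 with 1 to 3. An interaction of dose and number class was added after seeing the data. Each sample is 1 bird, and p-values reflect the variation among these 16 birds alone. The members and all lists were chosen with earlier results of these data known.

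Genes were named by rule: all mitochondrial and Z-linked members, members past the threshold, the 5 members with the lowest p in each direction per dose, the 2 most abundant nuclear subunit genes of each complex, isoform groups, members nearest 1 CPM, and up to 4 genes of each other list.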

Additional observations from a re-analysis of the deposited data

Results flagged for a closer look

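A single bird stood far from its group in 13 of the 140 sets of values examined, or 9.29%. Chance gives about 1 in 20 for independent sets. These sets share the same 16 birds and hold genes that vary together, so the 9.29% cannot be read as an excess over chance. In 5 mg/kg birds, NDUFS8 was lowest at 72.7 CPM in bird 4, with the next bird at 109.8 CPM. SDHC was highest at 94.5 CPM in bird 1, above 70.5 CPM. NDUFAF5 was highest at 8.26 CPM in bird 5, above 4.92 CPM, and NDUFA4L2 was highest at 6.03 CPM in the same bird, above 1.90 CPM.

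Solvent bird 1 was far below the other solvent birds for 5 mitochondrial genes and for NDUFV2. COX2 stood at 5575 CPM there, with the next bird at 11128 CPM, COX3 at 7884 CPM (next 13909 CPM) and CYTB at 6011 CPM (next 12267 CPM). ND2 stood at 3736 CPM (next 5990.2 CPM), ND3 at 355 CPM (next 849 CPM) and NDUFV2 at 54.2 CPM (next 80.2 CPM). This is the library with the TMM factor of 1.30; in unscaled CPM the mean log2 deviation of the 13 mitochondrial genes in that bird was -0.38, against -0.77 after TMM. NDUFV3 was highest in solvent bird 4, at 46.1 CPM above 39.6 CPM.

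Among birds numbered 4 to 6, 1 bird had the highest ratio of ATP5ME to ATP5MG, 0.945, above 0.763, and 1 bird the highest ratio of NDUFAF2 to NDUFAF1, 0.427, above 0.282.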

How the results depend on the processing

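The number of members called stayed at 0 for 5 mg/kg against solvent, 0.5 mg/kg against solvent and 5 mg/kg against 0.5 mg/kg, and at 4 for birds numbered 4 to 6 against 1 to 3 (the Z-linked members, a description since that split was known), under every alternative run: RLE scaling, scaling without mitochondrial genes, no filter, a filter of at least 1 CPM, DESeq2, limma-voom, 1 bird left out at a time, and, where they apply, only the 2 groups compared, a term for number class, each number class alone and no dose term. Over all genes the count at 5 mg/kg was 6 with edgeR, 160 with DESeq2, 2 with limma-voom and between 0 and 21 with 1 bird left out; at 0.5 mg/kg DESeq2 called 42 genes and edgeR with only the 2 groups called 6, against 0, and between the doses DESeq2 called 26, against 0. For birds numbered 4 to 6 against 1 to 3, DESeq2 called 320 genes, against 171 of 13748 with edgeR, of which 153 were among the 613 Z-linked genes.

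The median log2 fold change of nuclear subunit genes at 5 mg/kg, 0.03, was -0.21 in birds numbered 4 to 6 alone, and that of mitochondrial genes at 0.5 mg/kg, -0.08, was -0.48 there; the cause was not tested. Leaving out 1 bird gave ranges of -0.05 to 0.11 and -0.09 to 0.07 for nuclear subunit genes at 5 and 0.5 mg/kg, and of -0.23 to 0.01 and -0.20 to 0.00 for mitochondrial genes. The mitochondrial median at 5 mg/kg was 0.01 without 5 mg/kg bird 5, and at 0.5 mg/kg 0.00 without solvent bird 4. Of 3731 alternative values of the 41 named genes, 3632 stayed within 1 standard error or, where called, on the same side of the threshold with the same direction, 99 uncalled values moved further, and 0 called values reversed; 38 of the 99 came from birds numbered 1 to 3 alone and 56 from birds numbered 4 to 6 alone.

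Birds of the same number in different groups did not deviate together: their correlations ran from -0.08 to 0.20, with a median of 0.02 over 15 pairs, so the single numbers do not pair them over all genes; the Z-linked genes divide the classes of number. With a replicate block by number, or by the number in the bird code, edgeR again called 0 members in the comparisons of doses, and 2 and 1 of all genes at 5 mg/kg.

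Depth (15173021 to 46192737 counts) gave the members counts well above 0, while 5 or 6 birds a group leave intervals that reach past 1.5-fold for 17 of 80 members at 5 mg/kg and 16 of 80 at 0.5 mg/kg.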

Other observations

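Genes of the other mitochondrial lists that lie on the Z chromosome in the name table were also lower in birds numbered 4 to 6 than in birds numbered 1 to 3, given here as a description with no test, since this split was known from Z-linked genes. MRPS27, a protein of the small mitochondrial ribosomal subunit, had a log2 fold change of -1.08 (SE 0.17). MRPS30 had -0.95 (SE 0.08) and MRPS36 had -0.61 (SE 0.12). These 2 were listed by the prefix of their symbols alone, which does not place their proteins in that subunit. Of the large subunit, MRPL17 had -0.90 (SE 0.11) and MRPL50 -0.85 (SE 0.08). PTCD2, which in mammals acts on CYTB RNA, had -1.01 (SE 0.17), LYRM7, an assembly factor of complex III, had -0.75 (SE 0.15), and ACO1, the cytosolic aconitase, had -0.59 (SE 0.14). Of the cytosolic ribosomal protein genes on the Z chromosome, RPS6 had -0.86 (SE 0.12), RPS23 -0.76 (SE 0.13) and RPL37 -0.18 (SE 0.14). CYTB itself had a log2 fold change of 0.03 (SE 0.22), with a 95% interval within 1.5-fold.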
